A study of Mus musculus with 6 samples.

Results

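The Hox genes of the mouse were followed here in the anterior prostate (AP), chosen as every row whose symbol is Hox, a cluster letter from a to d, and a number. This gave 39 genes in 40 rows of 55076, because Hoxd4 was listed in 2 rows. RNA was sequenced from the whole AP of 3 OEx and 3 Ctrl male mice at 20 weeks of age, with 1 library for each mouse. OEx mice carried Pbsn-Cre and a Rosa26 N1ICD allele (Pbsn-Cre Rosa26 N1ICD/+, N1ICD-Oex in the labels), so that Cre, which the probasin promoter drives in prostatic epithelial cells, switched on the intracellular domain of Notch1 (N1ICD). Ctrl mice carried the same Rosa26 N1ICD/+ allele without Cre, and the labels call them Wild type. The labels do not say whether the mice were littermates, and the p values measure only the spread between these samples.

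Hox genes encode homeodomain transcription factors that tell cells their position along the body axis. In the mouse they lie in 4 clusters on different chromosomes, HoxA to HoxD, and genes with the same number in different clusters are paralogs that descend from a common ancestor gene. Low numbers lie at the end of each cluster that is active early and anteriorly, and numbers from 9 upwards belong to the posterior end, whose members pattern the urogenital tract, including the prostate and the seminal vesicle. HOX proteins bind DNA together with TALE homeodomain cofactors of the PBX, MEIS and PKNOX families, and the clusters are classical targets of Polycomb repression and Trithorax activation.

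The OEx libraries held 14772005 to 17009325 reads on annotated rows and the Ctrl libraries 17236735 to 18655462, as recovered from the deposited FPKM values (fragments per kilobase of gene length and library size, which the authors had already scaled between mice). Notch1 was at 41.9, 47.6 and 78.9 FPKM in OEx mice and at 5.18, 5.55 and 3.34 FPKM in Ctrl mice, so that every OEx mouse lay above every Ctrl mouse. In each group replicates 1 and 2 resembled each other more than replicate 3. Their median squared difference was 2.39 (OEx) and 2.18 (Ctrl) times that of counting noise, against 11.8 to 14.4 times for pairs with replicate 3. This excess over counting noise cannot show whether replicates 1 and 2 were prepared separately. They were counted as separate mice, and all tests with 3 mice in each group rest on that. The summed level of 7 seminal vesicle genes was 14993 FPKM in Ctrl3 and at most 3.99 FPKM in any other mouse. The 7 smooth muscle markers summed to 426 to 509.7 FPKM in OEx mice and 1268 to 2705 FPKM in Ctrl mice, and the 4 basal epithelial markers to 6.79 to 15.9 FPKM in OEx mice and 212 to 249.4 FPKM in Ctrl mice. The 8 prostate epithelial markers were all detected and summed to 3164 to 6249 FPKM in OEx mice and 16763 to 20563 FPKM in Ctrl mice. Fibroblast markers summed to 260.2 and 264.6 FPKM in OEx1 and OEx2, but to 27.6 FPKM in OEx3, and to 60.7 to 110.5 FPKM in Ctrl mice. The 6 leukocyte markers, none called, summed to 32.3, 32.8 and 8.09 FPKM in OEx1 to OEx3 and 8.18 to 15.8 FPKM in Ctrl mice. The 5 endothelial markers, none called, summed to 6.82 to 8.38 FPKM in OEx mice and 13.7 to 19.5 FPKM in Ctrl mice. The 4 urothelial markers summed to 326 to 552 FPKM in OEx mice and 150.2 to 201 FPKM in Ctrl mice. Of them, 2 were called higher by limma, Upk1a at 3.59 and Upk3a at 4.37 on the log2 scale. Upk1b went the other way, at 74.7 to 95.7 FPKM in OEx mice and 133.8 to 168.6 FPKM in Ctrl mice (limma log2 fold change -0.90, FDR 0.00129). Upk2 was at 0.52 (limma FDR 0.0168), and neither Upk1b nor Upk2 was called. The part of these cell types in the Hox values was not tested. In whole tissue, fewer cells of a type and less RNA per cell cannot be told apart.

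By summed FPKM, genes numbered 9 to 13 made up most of the Hox signal in the AP of both groups. A mean of at least 1 FPKM over the 6 mice, the level set for testing, was reached by 21 members, 8 of HoxA, 8 of HoxB, 5 of HoxD and none of HoxC. Per length, Hoxb13 was the most abundant member in every mouse, with 38.8% to 46.3% of the summed Hox FPKM in OEx mice and 52.8% to 61.5% in Ctrl mice. HoxB as a whole took 60.04% to 65.6% of this sum in OEx mice and 71.7% to 80.9% in Ctrl mice, while HoxA took 24.2% to 26.6% in OEx mice and 11.5% to 13.64% in Ctrl mice. Genes numbered 4 to 8 made up 22.7% to 26.0% of the sum in OEx mice and 7.92% to 9.93% in Ctrl mice, and genes numbered 9 to 13 made up 71.9% to 74.8% and 89.8% to 91.6%. These shares do not depend on the scaling between mice, and for HoxA, HoxB and both number ranges the groups did not overlap. Shares of 1 sum are tied to each other, however. With the deposited values the sum was 234.5 to 248.6 FPKM in OEx mice and 419.1 to 438.6 FPKM in Ctrl mice. HoxA itself summed to 60.3 to 62.4 FPKM and 50.5 to 57.2 FPKM. Without Hoxb13, numbers 4 to 8 took 41.8% to 42.5% in OEx mice and 20.6% to 21.7% in Ctrl mice. Numbers 9 to 13 then took 53.1% to 54.4% and 77.3% to 78.3%. The share of HoxD overlapped, at 10.1% to 13.8% in OEx mice and 7.28% to 14.6% in Ctrl mice, with the highest value in Ctrl3.

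Expression in the 2 groups was tested by limma on the log2(FPKM + 1) scale, and a gene was called with a false discovery rate (FDR) under 0.05 over all 12833 rows tested and a fold change over 2. Of the 21 tested members, 4 were called higher (Hoxa5, Hoxa6, Hoxa7 and Hoxb4) and 5 lower (Hoxb9, Hoxb13, Hoxa10, Hoxd8 and Hoxd9), where 12.9% of all tested rows were called higher and 15.7% lower. By FDR alone, 10 members were higher and 6 lower, where 30.7% of all tested rows were higher and 36.5% lower. Of the 21 members, 18 showed no overlap between groups, 10 with all OEx mice above all Ctrl mice and 8 below, and the same was true of 72.4% of the rows tested. The median log2 fold change of the members was 0.35, against -0.078 for all rows. Rescaling the FPKM values to the recovered library totals raised the median of all rows to 0.56, and 11 members were then called higher and 3 lower, where 30.5% of all rows were called higher and 4.58% lower. With 3 mice in each group, the smallest two-sided p of an exact permutation test on 1 gene is 0.1. Values after ± are standard errors of the limma estimate unless SD is written.

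**Figure D1:**
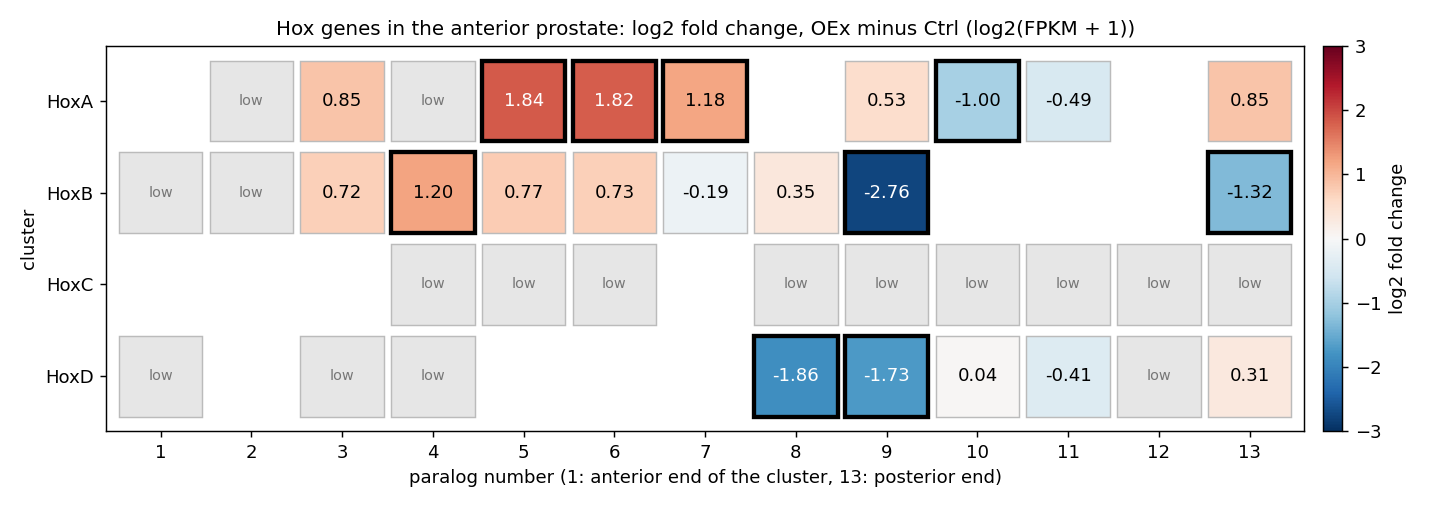
Each square is a Hox gene, placed by cluster (rows) and paralog number (columns), with its log2 fold change of OEx minus Ctrl on the log2(FPKM + 1) scale as number and colour. Black frames mark the 9 called members, grey squares marked low had a mean under 1 FPKM and were not tested, and empty places show no gene; the 4 higher calls lie at numbers 4 to 7 and the 5 lower calls at numbers 8 to 13.

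The calls were also counted by position in the clusters. Of 9 tested members numbered 4 to 8, 4 were called higher and 1 lower. Of 10 numbered 9 to 13, none was called higher and 4 were called lower. Among all tested rows 12.9% were called higher and 15.7% lower, so that none higher among these 10 is near the share of all rows. At an unadjusted limma p under 0.05, 2 of these 10 were higher and 5 lower, where 32.4% of all tested rows were higher and 38.1% lower, and Hoxa9 and Hoxa13 were higher by FDR alone. Both members numbered 3 that were tested had log2 fold changes above 0 and were not called. Across members, the rank correlation of paralog number with log2 fold change was -0.69 in HoxA (n = 8) and -0.81 in HoxB (n = 8), and 0.90 in HoxD (n = 5), a description only, since the members share libraries and neighbours. The plot of the members by cluster and number shows these positions.

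The members called higher formed a run of neighbours in HoxA together with Hoxb4. Hoxa5, which patterns the lung and trachea, lies at chr6:52201754-52204587 (GRCm38, GENCODE M21) and was at 7.53, 7.62 and 6.82 FPKM in OEx mice and at 0.979, 1.44 and 1.58 FPKM in Ctrl mice. The limma estimate was 1.84 ± 0.127 on the log2 scale (FDR 5.87e-05), a 5.495-fold difference of means. Every OEx mouse lay well above every Ctrl mouse. Hoxa6, at chr6:52206288-52208722, was at 4.93, 4.90 and 6.53 FPKM in OEx mice and at 1.01, 0.795 and 0.678 FPKM in Ctrl mice (limma log2 fold change 1.82 ± 0.139, FDR 8.29e-05). Hoxa7, at chr6:52214491-52221854, was at 5.16, 5.22 and 5.20 FPKM in OEx mice and at 1.95, 1.83 and 1.46 FPKM in Ctrl mice (limma log2 fold change 1.18 ± 0.103, FDR 1.25e-04). The OEx mice were nearly alike for Hoxa7 and the groups did not overlap for either gene, while 20.4% of the exon bases of Hoxa7 are also covered by the antisense transcript Hoxaas3. Hoxb4, known for expanding blood stem cells, lies at chr11:96318267-96321638 and was at 3.73, 3.19 and 3.48 FPKM in OEx mice and at 0.841, 0.993 and 1.0 FPKM in Ctrl mice. It rose by 1.20 on the log2 scale (standard error 0.106, limma FDR 1.31e-04), with no overlap between groups. All 4 genes kept their call in each of the 17 alternative analyses, library totals included.

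The largest decrease among the members was that of Hoxb9, which acts with its paralogs in the mammary gland and the rib cage and lies at chr11:96271457-96276595. It was at 6.41, 7.44 and 9.13 FPKM in OEx mice and at 59.9, 59.6 and 52.6 FPKM in Ctrl mice. Hoxb9 fell by 2.76 on the log2 scale (standard error 0.132, limma FDR 2.64e-05), which is 7.49-fold in means, and the highest OEx mouse stayed far below the lowest Ctrl mouse. Hoxb13, a prostate lineage factor that binds the androgen receptor, lies at chr11:96194316-96197447 and was at 93.1, 93.4 and 115 FPKM in OEx mice and at 266, 269.8 and 221 FPKM in Ctrl mice. The limma estimate was -1.32 ± 0.128 on the log2 scale (FDR 1.86e-04), again with no overlap. With library totals Hoxb13 was at -0.54 (limma FDR 0.00169) and lost its call, while Hoxb9 kept it in all 17 alternatives.

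Hoxd8 and Hoxd9 are neighbours on chromosome 2 and both were lower in OEx mice. Hoxd8, at chr2:74704615-74707933, was at 1.68, 1.48 and 1.29 FPKM in OEx mice and at 6.93, 6.42 and 11.4 FPKM in Ctrl mice (limma log2 fold change -1.86 ± 0.205, FDR 3.09e-04). Hoxd9, at chr2:74697727-74700208, was at 1.95, 2.54 and 2.08 FPKM in OEx mice and at 7.48, 8.39 and 13.8 FPKM in Ctrl mice (limma log2 fold change -1.73 ± 0.217, FDR 5.29e-04). Both were highest in Ctrl3, the groups did not overlap, and both kept their call without Ctrl3. Hoxa10, which patterns the uterus in females and the seminal vesicle and AP in males, lies at chr6:52231197-52240854 and was at 16.2, 14.9 and 13.3 FPKM in OEx mice and at 32.2, 28.9 and 30.9 FPKM in Ctrl mice. The limma log2 fold change of -1.003 ± 0.0970 (FDR 1.85e-04) sat at the fold criterion, with no overlap between groups. Hoxa10 lost its call with upper-quartile scaling (-0.74), without OEx3 (-0.93), without Ctrl1 (-0.97) and without Ctrl3 (-0.996), and under library totals (-0.26).

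**Figure D2:**
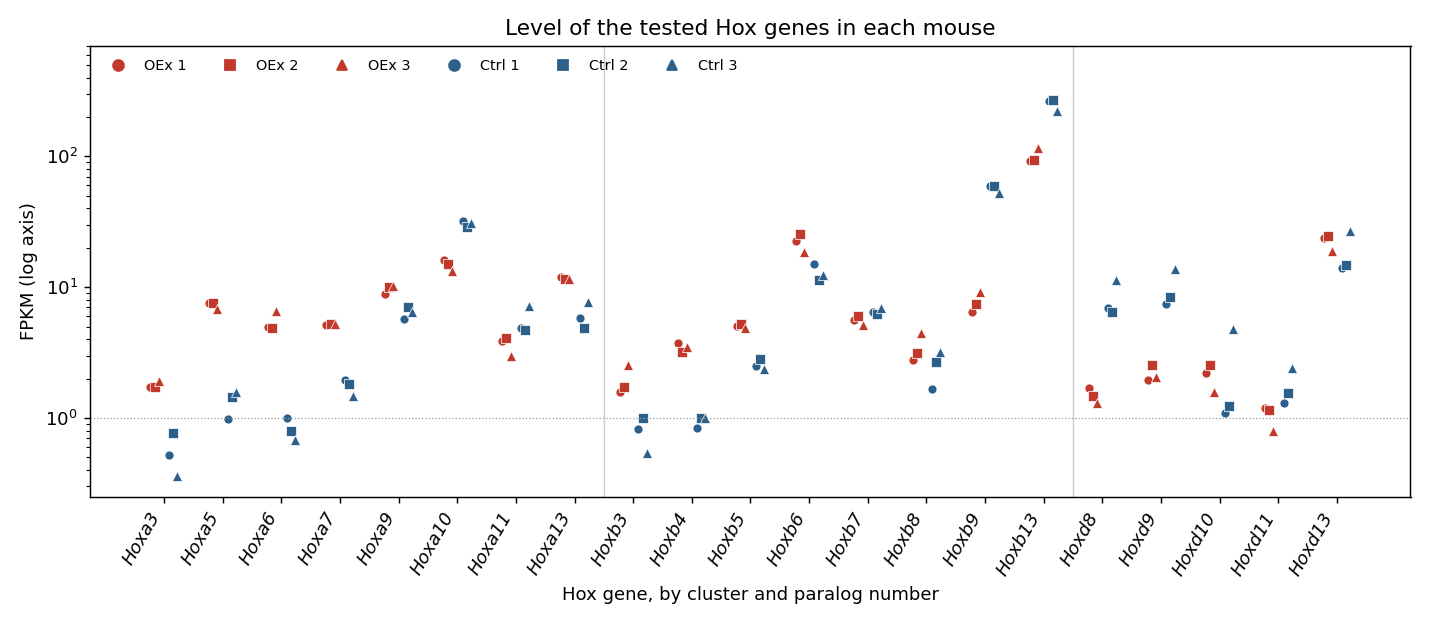
FPKM (log axis) of the 21 tested Hox genes in each mouse, ordered by cluster and paralog number, with OEx mice in red, Ctrl mice in blue and a marker shape for each replicate; the dotted line is 1 FPKM. Groups separate for 18 genes and overlap for Hoxb8, Hoxd10 and Hoxd13, and Ctrl3 (blue triangle) is the highest Ctrl mouse for all 5 HoxD genes.

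The start regions of called members are shown for those whose RefSeq window ends before their own annotated exons, to set 2 genes that rose beside 2 that fell. Each is the 250 bases before the start, written along the gene's strand (RefSeq, GRCm38.p6), with CpG dinucleotides in capitals because CpG-rich start regions are where Polycomb and Trithorax complexes are known to gather.
Hoxa5, chr6:52204588-52204837, minus strand: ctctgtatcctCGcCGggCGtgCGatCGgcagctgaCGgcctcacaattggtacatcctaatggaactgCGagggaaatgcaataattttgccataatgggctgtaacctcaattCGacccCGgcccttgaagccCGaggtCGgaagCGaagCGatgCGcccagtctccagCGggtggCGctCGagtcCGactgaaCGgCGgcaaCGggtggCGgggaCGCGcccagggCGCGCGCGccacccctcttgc
Hoxb4, chr11:96318017-96318266, plus strand: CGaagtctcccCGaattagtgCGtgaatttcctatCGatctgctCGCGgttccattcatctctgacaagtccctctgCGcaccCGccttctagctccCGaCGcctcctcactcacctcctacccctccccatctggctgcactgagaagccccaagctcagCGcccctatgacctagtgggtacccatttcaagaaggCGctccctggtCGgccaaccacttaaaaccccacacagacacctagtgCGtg
Hoxd8, chr2:74704365-74704614, plus strand: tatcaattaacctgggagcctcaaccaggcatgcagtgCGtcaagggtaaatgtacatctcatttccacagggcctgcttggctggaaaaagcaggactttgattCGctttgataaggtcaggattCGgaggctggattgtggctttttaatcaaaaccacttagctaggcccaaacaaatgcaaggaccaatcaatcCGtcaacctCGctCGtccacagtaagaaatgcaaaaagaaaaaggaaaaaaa
Hoxa10, upstream start, chr6:52240855-52241104, minus strand: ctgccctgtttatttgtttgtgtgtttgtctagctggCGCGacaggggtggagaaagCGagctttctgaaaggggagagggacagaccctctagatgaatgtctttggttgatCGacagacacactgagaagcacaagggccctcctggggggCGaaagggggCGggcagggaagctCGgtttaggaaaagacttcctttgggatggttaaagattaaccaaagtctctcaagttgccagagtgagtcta
The window held 28 CpG dinucleotides for Hoxa5, 14 for Hoxb4, 6 for Hoxd8 and 7 for Hoxa10, where a second RefSeq start of Hoxa10 held 20. Of the other called members with a window, which reaches into their own exons, the raised Hoxa6 and Hoxa7 held 24 and 7 and the lowered Hoxd9 held 13, so that the counts of raised and lowered genes overlap. The median over 24 windows of 22 Hox genes was 12.5, against 6 over all 32851 windows. None of the 4 windows printed held TGGGAA, the core letters bound by RBPJ, the DNA-binding partner of N1ICD, on either strand. These letters were found in 4 of 24 Hox windows (16.7%), those of Hoxa6, Hoxa9, Hoxa13 and Hoxd3, and in 21.6% of all windows. The longer form GTGGGAA, which contains the shorter, was in none of the Hox windows and in 5.42% of all windows. No window was found for Hoxb9 or Hoxb13, and no binding was measured here.

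The remaining members of HoxA were not called but mostly did not overlap either. Hoxa3, needed for the thymus and parathyroid, was at 1.73, 1.72 and 1.93 FPKM in OEx mice and at 0.518, 0.771 and 0.361 FPKM in Ctrl mice, a 3.25-fold difference of means. On the log2(FPKM + 1) scale, which understates changes of low genes, this was 0.85 (limma FDR 0.00179), and with limma-voom on the recovered reads, where 22.4% of rows were called higher, it was 1.77 and called. Antisense genes, among them Hoxaas2 and Hoxaas3, cover 25.4% of the exon bases of Hoxa3, and Gm28308 on the same strand shares 8.01%. Hoxaas2 had 26, 50 and 47 reads in OEx1 to OEx3 and 2 in each Ctrl mouse. The part of such reads in the Hoxa3 values was not tested. Hoxa9, a regulator of blood progenitors, was at 8.93, 10 and 10.1 FPKM in OEx mice and at 5.73, 7.03 and 6.50 FPKM in Ctrl mice (limma log2 fold change 0.53, FDR 0.00354). Hoxa13, which shapes the distal limb and the genital tubercle, was at 11.98, 11.57 and 11.56 FPKM in OEx mice and at 5.79, 4.84 and 7.77 FPKM in Ctrl mice. It had a log2 fold change of 0.85 (limma FDR 0.00258) and was called without Ctrl3 at 1.01. Hoxa11, which acts in the uterus and the forearm, was at 3.86, 4.11 and 2.96 FPKM in OEx mice and at 4.86, 4.69 and 7.16 FPKM in Ctrl mice. Its log2 fold change was -0.49 (limma FDR 0.0436) with the deposited values and 0.15 with library totals, and 35.0% of its exon bases lie antisense to Hoxa11os. OEx mice were all above Ctrl mice for Hoxa3, Hoxa9 and Hoxa13, and all below for Hoxa11.

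In HoxB, the tested genes other than Hoxb4, Hoxb9 and Hoxb13 did not reach the fold criterion. Hoxb3 was at 1.59, 1.74 and 2.55 FPKM in OEx mice and at 0.827, 0.999 and 0.542 FPKM in Ctrl mice (limma log2 fold change 0.72, FDR 0.00953), and 52.9% of its exon bases lie antisense to Hoxb3os. Hoxb5 was at 5.06, 5.21 and 4.89 FPKM in OEx mice and at 2.50, 2.83 and 2.36 FPKM in Ctrl mice (limma log2 fold change 0.77, FDR 4.62e-04). Hoxb6 was at 22.5, 25.6 and 18.5 FPKM in OEx mice and at 15.1, 11.4 and 12.5 FPKM in Ctrl mice (limma log2 fold change 0.73, FDR 0.00484). These 3 genes were higher in every OEx mouse than in any Ctrl mouse, under the fold criterion on this scale. Hoxb3 differed 2.48-fold in means and was called higher with a pseudocount of 0.1 (1.22, FDR 0.0104), where 18% of all rows were, and with limma-voom (1.32, FDR 0.00822). Hoxb7 was at 5.58, 6.06 and 5.17 FPKM in OEx mice and at 6.42, 6.20 and 6.90 FPKM in Ctrl mice (limma log2 fold change -0.19, FDR 0.113), and it was above 0 with library totals (0.48) and upper-quartile scaling (0.054). Hoxb8, known from myeloid progenitors, was at 2.78, 3.15 and 4.44 FPKM in OEx mice and at 1.67, 2.67 and 3.22 FPKM in Ctrl mice (limma log2 fold change 0.35, FDR 0.188). The difference of Hoxb8 was within the spread between mice. Hoxb8 and Hoxb9 are neighbours in the cluster, and only the latter was called.

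The other HoxD members were not called and varied most through Ctrl3. Hoxd10, which acts in motor neurons of the hindlimb, was at 2.21, 2.55 and 1.59 FPKM in OEx mice and at 1.10, 1.23 and 4.78 FPKM in Ctrl mice. The limma estimate was 0.040 ± 0.396 on the log2 scale (FDR 0.935), and the order of the groups turned on Ctrl3, which lay above and the other Ctrl mice below every OEx mouse. Hoxd11, which patterns the forearm and kidney with Hoxa11, was at 1.19, 1.15 and 0.789 FPKM in OEx mice and at 1.29, 1.56 and 2.39 FPKM in Ctrl mice (limma log2 fold change -0.41, FDR 0.0842; 0.030 with library totals). Hoxd13, a regulator of digits and of the genital tubercle, was the most abundant HoxD gene per length, at 23.7, 24.8 and 18.8 FPKM in OEx mice and at 14.1, 14.8 and 27.0 FPKM in Ctrl mice (limma log2 fold change 0.31, FDR 0.314). The estimate for Hoxd13 was 0.59 (FDR 0.00995) without Ctrl3, 0.15 without Ctrl1 and 0.18 without Ctrl2, and with library totals it was 1.05 (FDR 0.0199) and called. Ctrl3 was the highest Ctrl mouse for all 5 tested HoxD genes, at 1.68 to 4.10 times the mean of Ctrl1 and Ctrl2, and for 3 of 8 HoxA and 3 of 8 HoxB genes. Ctrl1 and Ctrl2 differed from each other by ratios between 0.828 and 1.08 for the HoxD genes.

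The HoxD genes, the smooth muscle markers and the seminal vesicle markers all had their highest sums in Ctrl3. The summed HoxD level was 31.3, 33.3 and 25.1 FPKM in OEx mice and 31.9, 33.3 and 61.3 FPKM in Ctrl mice. The 7 smooth muscle markers and the 4 basal epithelial markers were all called lower in OEx mice with limma, where 15.7% of all tested rows were. With library totals the 4 basal markers kept their calls and 2 of the 7 smooth muscle markers did, where 4.58% of all rows were called lower. Des lost its call whenever a mouse was left out. The smooth muscle markers summed to 1292, 1268 and 2705 FPKM in Ctrl mice and to 509.7, 507.0 and 426.0 FPKM in OEx mice. The HoxD sums of Ctrl1 and Ctrl2 thus lay near those of OEx1 and OEx2, while their smooth muscle sums were apart. Fibroblast markers, none called, summed to 62.9, 60.7 and 110.5 FPKM in Ctrl mice and to 260.2, 264.6 and 27.6 FPKM in OEx mice. The seminal vesicle, which lies against the AP, also expresses posterior Hox genes, and the part of these tissues in the HoxD and Hoxa11 values was not tested. Without OEx3 and Ctrl3, an alternative added after the data were seen, 5 Hox genes were called higher and 4 lower, where 14.2% and 16.5% of all rows were.

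**Figure D3:**
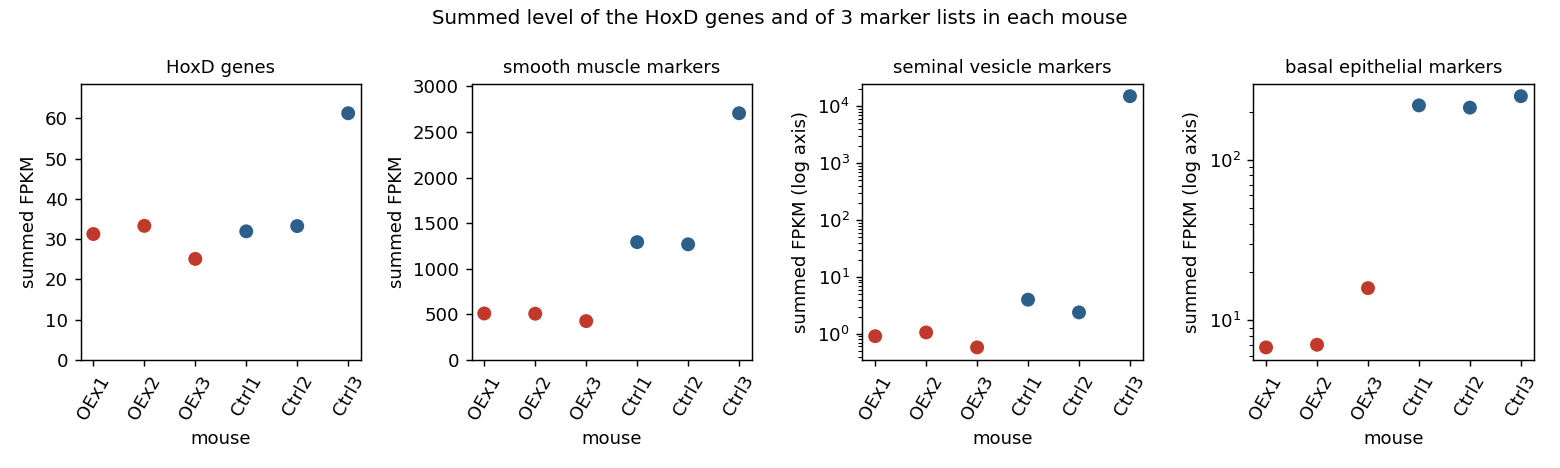
Summed FPKM in each mouse of the HoxD genes, of 7 smooth muscle markers, of 7 seminal vesicle markers (log axis) and of 4 basal epithelial markers (log axis), with OEx mice in red and Ctrl mice in blue. Ctrl3 stands above the other mice for HoxD at 61.3 FPKM, for smooth muscle at 2705 FPKM and for seminal vesicle genes at 14993 FPKM, while the basal markers separate the groups.

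Paralogs were next compared within each mouse, as ratios that no scaling between mice can move. The 21 tested members gave 13 pairs in 9 paralog groups, and the groups of mice did not overlap for 9 pairs. No such share was counted for pairs of other genes, and 72.4% of all single rows tested did not overlap either. Hoxa9 was at 1.39, 1.34 and 1.11 times the FPKM of Hoxb9 in OEx mice and at 0.0957, 0.118 and 0.124 times in Ctrl mice. Hoxb9 was thus far above Hoxa9 per length in Ctrl mice and slightly below it in OEx mice. The ratio of Hoxa9 to Hoxd9 was 4.58, 3.94 and 4.88 in OEx mice and 0.766, 0.838 and 0.471 in Ctrl mice. Among the genes numbered 13, the ratio of Hoxa13 to Hoxb13 was 0.129, 0.124 and 0.101 in OEx mice and 0.0218, 0.0180 and 0.0351 in Ctrl mice. Hoxb13 remained the most abundant of the 3 in every mouse. HoxA members gained on their HoxB paralogs at numbers 5, 6, 7, 9 and 13, with mean log2 ratios that differed by 1.502 for Hoxa5 and Hoxb5, 1.96 for Hoxa6 and Hoxb6 and 1.80 for Hoxa7 and Hoxb7. The ratio overlapped between groups for Hoxa3 and Hoxb3, for Hoxb9 and Hoxd9, for Hoxa10 and Hoxd10 and for Hoxa11 and Hoxd11. No test was made of these ratios.

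**Figure D4:**
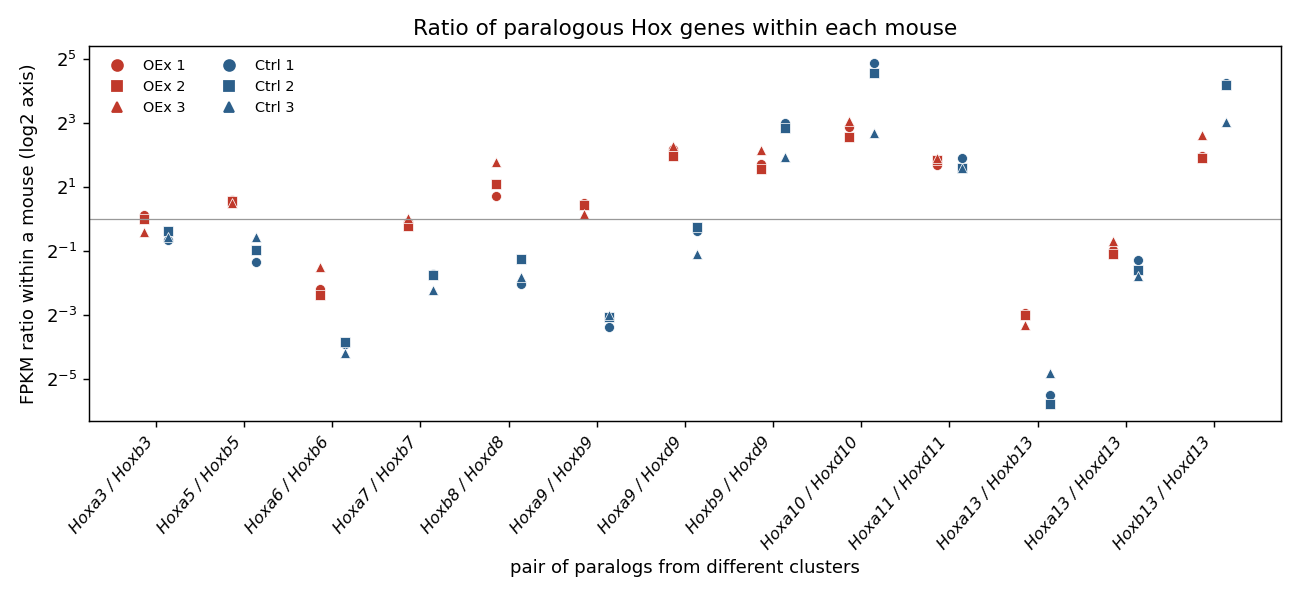
Ratio of FPKM values within a mouse (log2 axis) for the 13 pairs of tested paralogs, with OEx mice in red, Ctrl mice in blue and a marker shape for each replicate. The groups separate for 9 pairs, most widely for Hoxa9 over Hoxb9, which lies between 1.11 and 1.39 in OEx mice and between 0.0957 and 0.124 in Ctrl mice. The share of separated pairs among other genes was not counted.

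The other 19 rows had a mean under 1 FPKM and were not tested. In HoxC, no gene had more than 1 read in any mouse, and the 9 genes held 6 reads in all 6 mice together. Hoxc4, Hoxc8, Hoxc12, Hoxc13, Hoxb1 and Hoxd1 were at 0 in every mouse, and a count of 0 allows up to 3 reads, which for Hoxc4 is 0.0586 FPKM in OEx1 and 0.0902 FPKM in Ctrl2. HoxC transcripts were thus not detected above this floor at the present depth. Hoxa2, which patterns the second pharyngeal arch, was just under the level for testing, with 65, 57 and 50 reads in OEx1 to OEx3 and 6, 5 and 4 in Ctrl1 to Ctrl3. When all rows were tested, Hoxa2 was called higher with a log2 fold change of 1.10 (limma FDR 9.35e-04), where 6.27% of all such rows were called higher and 7.12% lower. Gm28308, an overlapping gene on the same strand, shares 15.04% of its exon bases. Hoxd12 had 23, 44 and 25 reads in OEx1 to OEx3 and 34, 26 and 70 in Ctrl1 to Ctrl3, and Ctrl3 was again the highest mouse. Hoxa4, Hoxb2 and Hoxd3 had 0 to 11 reads in any mouse. The reads of Hoxd4, in its 2 rows, could not be recovered, and its exons overlap those of Hoxd3.

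Noncoding genes inside the clusters give a second readout of these loci, and 13 of 43 such rows had a mean of at least 1 FPKM. Gm53, a lincRNA at chr11:96251105-96264868 between Hoxb13 and Hoxb9, was at 10.4, 10.9 and 18.6 FPKM in OEx mice and at 35.5, 33.4 and 32.2 FPKM in Ctrl mice. It was called lower (limma log2 fold change -1.32 ± 0.211, FDR 0.00155), as were the Hox genes on both sides of it, and was at -0.58 with library totals. Next to it lies the precursor of miR-196a, Mir196a-1, at chr11:96265164-96265265, which was at 57.5, 54.0 and 90.2 FPKM in OEx mice and at 62.7, 61.3 and 40 FPKM in Ctrl mice (limma log2 fold change 0.28, FDR 0.349). The groups overlapped for Mir196a-1. This microRNA family is known to target Hox messages, and the mature arms from HoxB and HoxA (RefSeq, GRCm38.p6) share the seed, bases 2 to 8, in capitals.
miR-196a-5p: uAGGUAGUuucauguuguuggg
miR-196b-5p: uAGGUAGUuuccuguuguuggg
Mature microRNAs were not measured in these libraries.

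In HoxA, Gm15050, an antisense gene at chr6:52172881-52174059 within the span of Hoxa3, had 29, 39 and 32 reads in OEx1 to OEx3 and 1, 0 and 4 in Ctrl1 to Ctrl3. It was called higher (limma log2 fold change 1.74 ± 0.174, FDR 2.13e-04). Hoxa11os, the antisense partner of Hoxa11, was at 37.0, 35.7 and 34.8 FPKM in OEx mice and at 22.8, 21.2 and 25.5 FPKM in Ctrl mice (limma log2 fold change 0.61, FDR 0.00120). For Hoxa11os the OEx mice all stood above the Ctrl mice, where Hoxa11 itself was lower, but the strand setting of the read counting is not given in the sources used here, so reads of the overlap cannot be told apart. Gm27817 and Gm27454, short annotated RNAs inside the span of Hoxa11os, were called higher with log2 fold changes of 1.92 and 1.80. In HoxB, Gm11536 was called higher (limma log2 fold change 1.04, FDR 0.0369) and kept its call in 1 of 6 analyses with a mouse left out, and Hoxb5os (0.89), Gm27898 (-0.073, and 0.70 with library totals), Gm27605 (0.34) and Gm11539 (-0.75) were not called. In HoxA, 9530018H14Rik (0.79) and Gm27477 (-0.68) were not called.

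The TALE cofactors followed next, with 8 genes of which 5 were tested. Meis1, a partner of posterior HOX proteins, was at 5.89, 5.98 and 7.24 FPKM in OEx mice and at 2.32, 2.24 and 2.33 FPKM in Ctrl mice (limma log2 fold change 1.15 ± 0.103, FDR 1.35e-04). Pknox2 was at 4.11, 3.86 and 3.10 FPKM in OEx mice and at 1.34, 1.20 and 1.41 FPKM in Ctrl mice. Both genes were called higher and none of the 5 tested was called lower by limma, where 12.9% of all tested rows were called higher and 15.7% lower. At an unadjusted limma p under 0.05, 2 of the 5 were lower, where 38.1% of all tested rows were. With limma-voom on recovered reads 1 was called lower, where 17.4% of rows were. Pknox2, with a log2 fold change of 1.01, kept its call in 3 of 6 analyses with a mouse left out. Pbx2 (-0.81) and Pknox1 (-0.86), named after their values were seen, were lower at an FDR under 0.05 with changes under the fold criterion. Meis2, under the level for testing, was at 0.533, 0.512 and 0.294 FPKM in OEx mice and at 0.763, 0.827 and 0.891 FPKM in Ctrl mice. The summed level of the 8 genes was 24.4 to 25.1 FPKM in OEx mice and 27.7 to 28.9 FPKM in Ctrl mice.

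All 23 Polycomb genes listed were tested, with 4 called higher and 1 called lower, where 12.9% of all tested rows were called higher and 15.7% lower. Their median was 0.24 on the log2 scale, against -0.078 for all rows. Ezh2, the methyltransferase of the Polycomb repressive complex 2 (PRC2) that marks silent Hox genes, was at 3.24, 2.93 and 2.80 FPKM in OEx mice and at 0.706, 0.879 and 1.01 FPKM in Ctrl mice (limma log2 fold change 1.10 ± 0.116, FDR 2.54e-04). Suz12, its core partner, had a log2 fold change of 1.41, and Mtf2, an accessory subunit that reads CpG-rich DNA, had 1.15. Phc3, of the Polycomb repressive complex 1 (PRC1), showed the largest rise of the list, from 2.87 ± 0.291 FPKM in Ctrl to 16.3 ± 3.22 FPKM in OEx mice (SD, n = 3). Phf19, another PRC2 accessory subunit, was called lower at -1.50 and lost its call with library totals, at -0.84. Bmi1, of PRC1, was at 6.69, 6.72 and 6.64 FPKM in OEx mice and at 3.54, 4.06 and 4.32 FPKM in Ctrl mice (limma log2 fold change 0.63, FDR 0.00108), under the fold criterion. With library totals 10 Polycomb genes were called higher and none lower, where 30.5% of all rows were called higher and 4.58% lower.

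Of 12 Trithorax genes, all tested, 5 were called higher and 1 lower, where 12.9% of all tested rows were called higher and 15.7% lower. The median of the list was 0.38 on the log2 scale, against -0.078 for all rows. Kmt2a, the methyltransferase known for keeping Hox genes active, was at 10.7, 11.4 and 13.01 FPKM in OEx mice and at 4.44, 4.41 and 2.42 FPKM in Ctrl mice (limma log2 fold change 1.44 ± 0.198, FDR 8.01e-04). Its partner Psip1, which tethers it to chromatin, had 1.49, the related enzymes Kmt2c and Kmt2d had 1.49 and 1.35, and Kdm6a, which removes the mark laid by PRC2, had 1.13. Dpy30, a small subunit shared by all these methyltransferase complexes, was called lower at -1.28 (standard error 0.0933, limma FDR 7.06e-05). Dpy30 lost its call with library totals, at -0.53. No overlap between groups was seen for these 6 genes, nor for 72.4% of all rows tested.

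**Figure D5:**
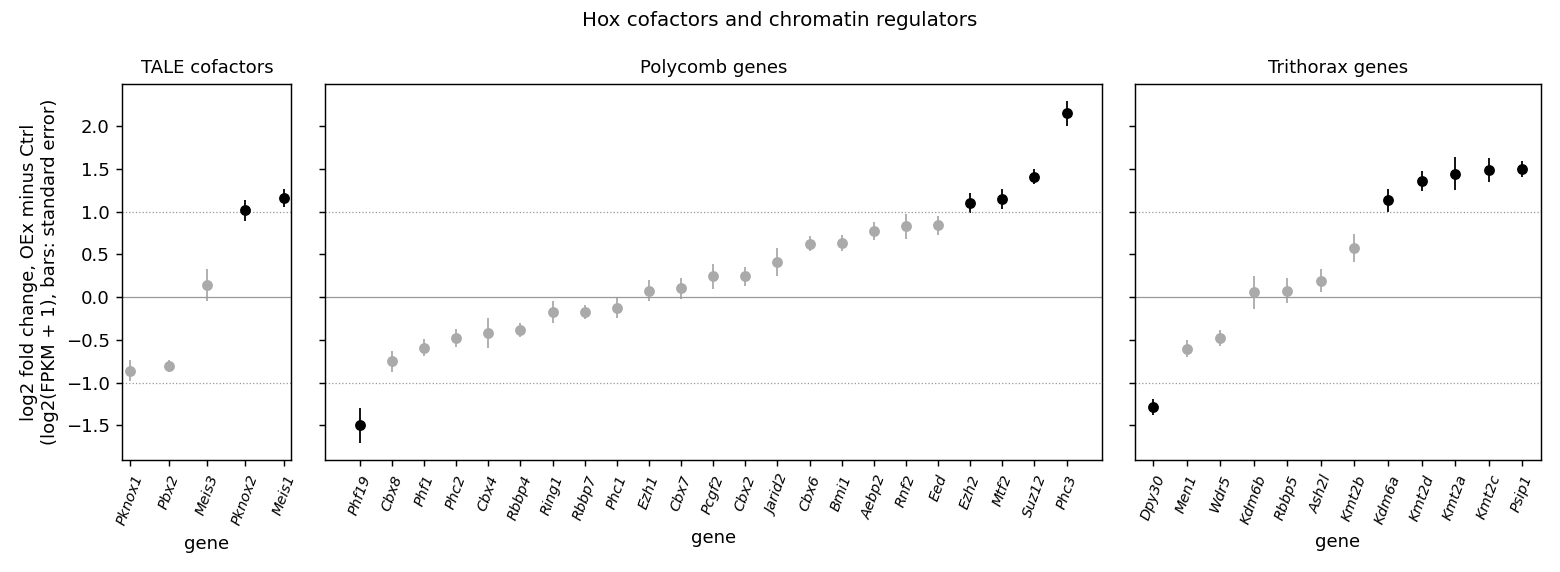
Log2 fold change of OEx minus Ctrl on the log2(FPKM + 1) scale with its standard error for the tested TALE cofactors (5), Polycomb genes (23) and Trithorax genes (12), ordered by value within each list. Black points are called genes and grey points are not, dotted lines mark a log2 fold change of 1 in each direction; Phc3 at 2.15 and Phf19 at -1.50 are the extremes.

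Genes of upstream inputs to the clusters were not called or hardly expressed. Of 15 genes of the retinoic acid pathway, which sets anterior Hox boundaries in the embryo, 8 were tested and none was called by limma. At an unadjusted p under 0.05, 4 of them were higher and 3 lower, where 32.4% and 38.1% of all rows were, and by FDR alone 3 were higher and 2 lower, where 30.7% and 36.5% of all rows were. With library totals 5 were called higher, where 30.5% of all rows were. With limma-voom on recovered reads 1 was called higher and 2 lower, where 22.4% and 17.4% of rows were. Cdx1, Cdx2 and Cdx4, which activate Hox genes in the embryonic trunk, were listed at 0 in every mouse. Evx1, which lies beside Hoxa13, was at 0.017 to 0.116 FPKM in OEx mice and 0.389 to 0.709 FPKM in Ctrl mice, and Evx2, which lies beside Hoxd13, was at 0.543 to 1.06 FPKM and 0.706 to 1.77 FPKM.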

How the data were processed

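RNA of whole anterior prostates from 3 OEx and 3 Ctrl mice was sequenced on total RNA libraries made with the TruSeq kit. The authors deposited FPKM values, 1 table for each mouse, from a pipeline the study calls in-house; the submitters' processing notes name HISAT2 2.0.5, featureCounts 1.5.0-p3, StringTie 1.3.3b and CASAVA, without roles, and the genome build, the strand setting and the scaling are not given in the sources used here. Rows were placed by symbol on GENCODE M21 (GRCm38; 53710 of 55076 rows). Reads were recovered from exon lengths and the steps between values (96.9% to 97.5% of values under 1000 reads were whole within 0.05 reads). Relative to these reads, the library size implied by the FPKM values was 1.22 to 1.34 in OEx and 0.726 to 0.815 in Ctrl libraries, so a scaling between mice is already contained in them. A value of 3 reads is a CPM of 0.161 to 0.203, a floor for counting error only.

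Group was the only term of a linear model in limma 3.58.1 (R 4.3.3) fitted to log2(FPKM + 1), with trended eBayes. All 12833 rows averaging 1 FPKM or more entered, and calls needed a Benjamini-Hochberg FDR under 0.05 and a fold change over 2, as in the study. The design assumed no replicate block. In simulated data with 4-fold changes, 95.3% of 191 changed genes were called and 5 of 12139 unchanged ones. The simulated mice were independent, with the same dispersion for every gene, as many rises as falls, and known library sizes. In the real data 28.6% of rows were called, replicate 3 stood apart and the scaling moved the calls. The simulated rates therefore check the fit only and do not give the error rate of the real calls. Several list genes are given only through counts or sums, and 2 further genes are not reported here by name. Of the other lists, called genes and Meis1, Meis2, Ezh2, Bmi1 and Kmt2a are named, with Notch1 and noncoding rows of at least 1 FPKM inside the clusters. The members and lists were chosen with earlier results of these data known. Alternatives covered pseudocount, filter, scaling, model, threshold, the replicate block and leaving out each mouse. Python 3.11.15, numpy 2.4.6, pandas 2.3.3 and matplotlib 3.10.9 were used.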

Additional observations from a re-analysis of the deposited data

How the results depend on the processing

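Hoxa5, Hoxa6, Hoxa7, Hoxb4, Hoxb9, Hoxd8 and Hoxd9 kept their direction and their call in all 17 alternatives. Counts of called genes depended most on the scaling between mice and the threshold. With library totals, which shifted the median of all rows to 0.56, 11 Hox genes were higher and 3 lower, 10 Polycomb genes higher and 0 lower, 0 Trithorax genes lower and 5 retinoic acid genes higher. With upper-quartile scaling 7 Polycomb genes and 1 retinoic acid gene were higher. By FDR alone, 10 Hox, 9 Polycomb and 3 retinoic acid genes were higher, and 2 TALE, 5 Polycomb, 3 Trithorax and 2 retinoic acid genes were lower. With limma-voom on recovered reads 7 Hox genes were higher and 1 retinoic acid gene was higher, and 1 TALE gene and 2 retinoic acid genes were lower. With a pseudocount of 0.1, 1 TALE gene was lower and the retinoic acid list had 1 higher and 1 lower. Of all 12833 rows, the main settings called 1653 higher and 2021 lower, library totals 3912 and 588, and upper-quartile scaling 2341 and 1326. The pseudocount of 0.1 gave 2307 higher and 2459 lower, and FDR alone 3941 and 4680. Limma-voom called 3547 higher and 2748 lower of 15818 rows. The counts of the lists have to be read beside these. Beyond the settings' own construction, the cause was not tested.

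The direction turned for Hoxa11 with library totals (0.15), for Hoxb7 with library totals (0.48) and upper-quartile scaling (0.054), and for Hoxd11 with library totals (0.030). Hoxd10, near 0, turned without OEx replicate 2 (-0.061), without Ctrl replicate 1 (-0.22), without Ctrl replicate 2 (-0.17) and with replicates 1 and 2 averaged (-0.26), an alternative added after the data were seen, and reached 0.64 without OEx replicate 3 and Ctrl replicate 3. Leaving out each mouse in turn gave 4 to 5 Hox genes higher and 4 to 5 lower, 1 to 2 TALE genes higher, and 0 to 1 retinoic acid genes lower. Of all rows, 1614 to 1726 were then higher and 1987 to 2043 lower. With replicates 1 and 2 averaged 1 TALE gene was higher. Without OEx replicate 3 and Ctrl replicate 3 together, also added later, 1 retinoic acid gene was lower. Same-numbered mice did not deviate together (r between -0.307 and -0.189). Because replicates 1 and 2 were close in each group, these values mainly carry the contrast of replicate 3 with the other mice. They cannot show whether the mice were paired or shared a batch. A block for the replicate number left 4 Hox genes higher and 5 lower, and no list changed its counts. At this depth, members with 0 to 11 reads in every mouse could not be compared firmly.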
